A study of Mus musculus with 4 samples.

Results

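The 10 genes described here encode regulators of apoptosis of the Bcl2 family. They were listed by name, with no threshold on their values, as the effectors Bax and Bak1, the anti-apoptotic genes Bcl2, Bcl2l1 and Mcl1, and the genes of the BH3-only proteins Bcl2l11, Bbc3, Pmaip1, Bid and Bad. All 10 were measured on every array, among 20616 genes well above background on at least 1 array. Expression was measured on 4 one-colour oligonucleotide arrays of primary mouse hepatocytes, with 1 array per group. Drp1LiKO hepatocytes lack dynamin-related protein 1 (Drp1, gene Dnm1l), the GTPase that divides mitochondria. The 4 groups were control, Drp1LiKO, control given 200 μM palmitate, and Drp1LiKO given 200 μM palmitate. All cells came from C57BL/6 mice and were harvested 24 h after seeding.

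The methods describe Drp1LiKO mice and control siblings that carry the floxed allele, all male, whereas the labels call the control cells wild-type and the title of the control palmitate sample names Drp1flox. The study deleted the floxed allele with Cre driven by the albumin promoter, which is active in hepatocytes. The age of the donors, any pooling of animals and the duration of palmitate on the arrayed cells are not given in the sources used here. GEO lists the raw data of the untreated control array under another sample as well. No group had a replicate, so a difference between arrays could not be set against the spread between animals or cultures, and such differences are given without a test. Each slide held both genotypes at 1 condition, untreated or palmitate, so palmitate and slide cannot be told apart.

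The Bcl2 family decides whether the outer mitochondrial membrane is breached. Bax and Bak1 form pores in that membrane and release cytochrome c, Bcl2, Bcl2l1 (Bcl-xL) and Mcl1 hold them in check, and BH3-only proteins relay stress signals by binding the guardians or by activating the effectors. In hepatocytes Bcl-xL and Mcl1 are known as the main guardians, Bid links death receptors to mitochondria, and Drp1 is known to meet Bax at sites of mitochondrial division.

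Values are log2 intensities from which the 75th percentile of the array was subtracted, so 0 is that percentile. Probes differ in how strongly they bind, so levels were compared between arrays for 1 probe and not between genes. The 10 genes had 22 probes, of which 20 were well above background on all 4 arrays and 2 on none. Both dim probes, 1 for Bcl2 and 1 for Bid, were left out. In 5 genes several probes gave a value, and in the other 5 genes 1 probe did. Among probes spotted 10 times, the SD within an array had a median of 0.04 log2 units, a measure of spot noise alone. The target of the knockout, Dnm1l, read 2.42 on the control array and 1.07 on the Drp1LiKO array without palmitate, and 2.43 and 1.01 with it.

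The probes below lie in coding sequence and are printed from the array annotation, 5′ to 3′ on the sense strand, with positions on mm9. The Bax probe is shown because it reads a stretch apart from the probe that stands for the gene, and the Bcl2 probe because its value came close to the threshold used here. The Bcl2l11 probe is shown because it reads the BH3 region itself. Its capitals mark the codons of the glycine and aspartate at the core of the BH3 motif.
Bax, chr7:52721469-52721624, minus strand: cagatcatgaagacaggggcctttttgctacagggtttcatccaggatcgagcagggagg
Bcl2, chr1:108608970-108609029, minus strand: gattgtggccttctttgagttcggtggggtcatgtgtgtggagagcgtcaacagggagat
Bcl2l11, chr2:127972893-127983988, plus strand: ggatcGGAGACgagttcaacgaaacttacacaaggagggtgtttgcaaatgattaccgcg
The 60 bases of the Bax probe cover 156 bases of the genome and those of the Bcl2l11 probe cover 11096, as probes across a splice junction do. The Bcl2 probe matches an unbroken stretch, in the part of the reading frame that encodes the BH1 region.

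Bax, which encodes the pore-forming effector that moves from the cytosol to mitochondria, was low on 1 of the 4 arrays. The probe that stands for the gene (chr7:52717122-52717181, minus strand) read 4.96 in control and 3.36 in Drp1LiKO without palmitate, and 5.10 in control and 5.23 in Drp1LiKO with it. The untreated Drp1LiKO value was the lowest by more than 1 log2 unit, and the other 3 lay within 0.27 of each other. The Drp1LiKO level was thus 0.33 of control without palmitate (log2 difference −1.60) and 1.10 of control with palmitate (0.13). The coding probe printed above was low on the same array, with 3.44 in control and 1.60 in Drp1LiKO, and 3.42 and 3.41 with palmitate. Its genotype difference was −1.83 without palmitate and −0.01 with palmitate, and its other 3 values lay within 0.03 of each other. The low Bax value therefore did not rest on 1 spot, but it did rest on 1 array.

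A gene was counted as changed when it differed by 1 log2 unit or more, a 2-fold change, and its probe passed the scanner's background flag on 1 or both of the compared arrays. Without palmitate, 1 of the 10 genes met this between the genotypes, Bax, which was lower in Drp1LiKO. Of all 19875 genes compared there, 14.4% met it, and 5.58% were lower. With palmitate 0 of the 10 genes met it, beside 11.5% of 18891 genes. Leaving out the untreated Drp1LiKO array leaves that palmitate pair as the only comparison of genotypes, in which none of the 10 genes reached 2-fold.

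**Figure D1:**
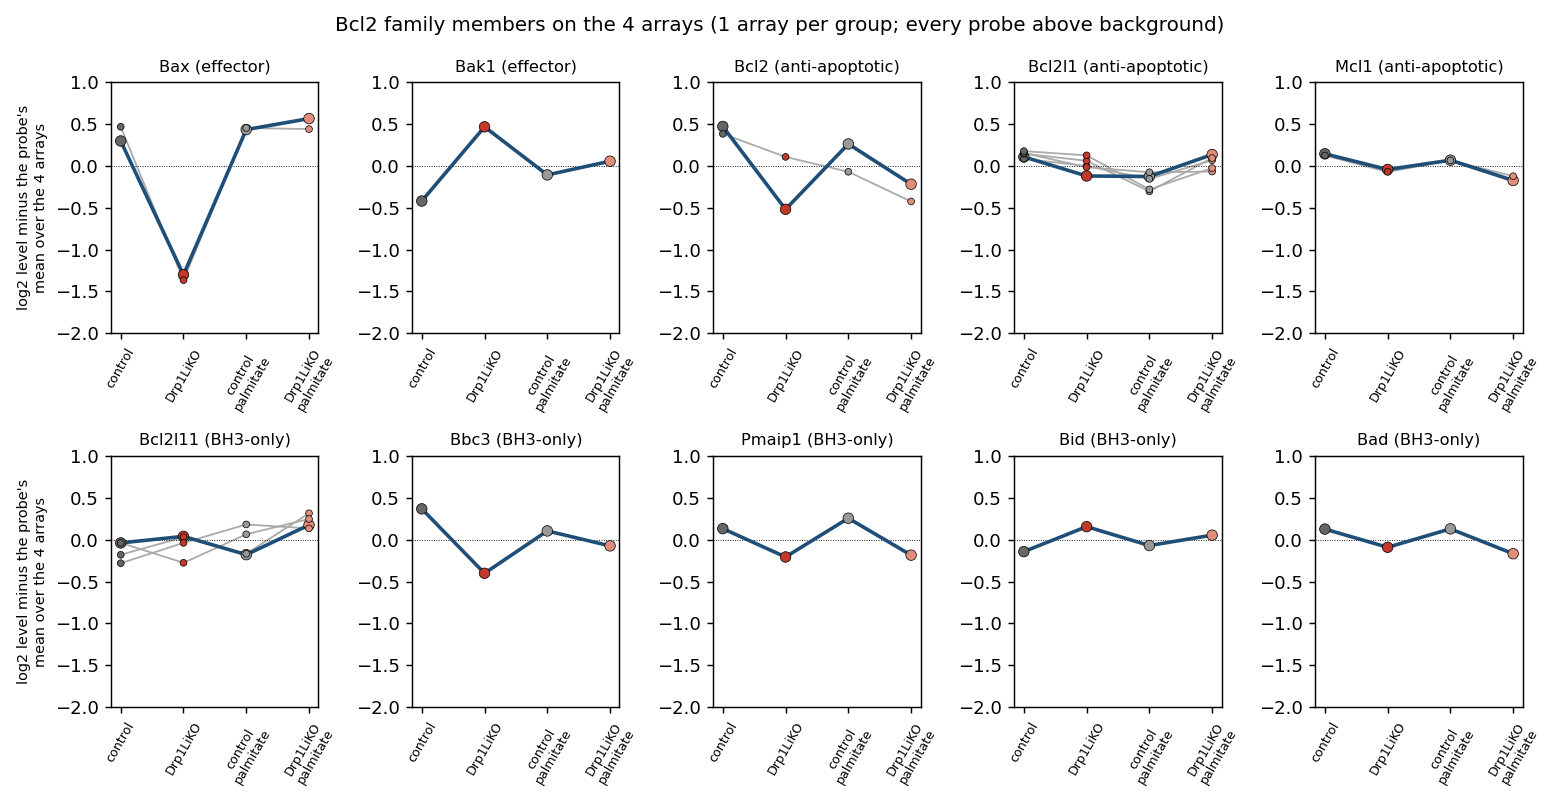
Normalized log2 level of each Bcl2 family gene on the 4 arrays, minus the mean of that probe over the 4 arrays. Blue lines join the values of the probe that stands for the gene, grey lines those of its other probes above background; Bax lies 1.60 below control on the untreated Drp1LiKO array on 1 probe and 1.83 below on the other.

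The untreated Drp1LiKO array stood apart on other probes too. A probe above background on all 4 arrays was counted as standing apart on an array when the other 3 arrays ranged over less than 0.7 and its own value was 1.5 log2 units or more away from their median. This held for 87 of 20555 probes with such a range on the untreated Drp1LiKO array (0.42%), 39 above and 48 below the others. It held for 23 probes on the control array (0.12%) and, with palmitate, 10 for control (0.05%) and 6 for Drp1LiKO (0.03%). Both Bax probes were among the 87, at −1.74 and −1.82 from the median of the others, and no other probe of the 10 genes was. With Bax, 7 genes had several such probes on that array, of which Prmt1, an arginine methyltransferase, Dnajc7, a co-chaperone, and Dhrs4 were also low. Bag6 and Setd5 were high on both probes, and in Map3k10 1 probe lay above and 1 below the other arrays.

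Spots near the Bax spots and genes near Bax on the chromosome did not share its low value. Within 4 rows and columns of the Bax spots, 35 and 36 spots well above background had a median genotype difference without palmitate of −0.06 each, and 1 and 0 of them were lower by 2-fold. Within 100 kb of Bax, 15 probes of 11 other genes gave differences between −0.52 and 0.88, none of them lower by 2-fold. Of all genes compared in that pair 5.58% were lower by 2-fold, so few would be among so small a number in any case. A local cause of the low Bax value was not tested. By the pattern over the 4 arrays, each gene centred on its own mean, the nearest of 16610 other genes above background on all arrays were Ager (root mean square distance 0.04 log2 units), Rnf25 (0.05) and Olfr1229 (0.06). Ager read 0.94, −0.73, 0.98 and 1.20 on the arrays in the order above. The likeness rests on 4 values, of which 1 stands out.

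**Figure D2:**
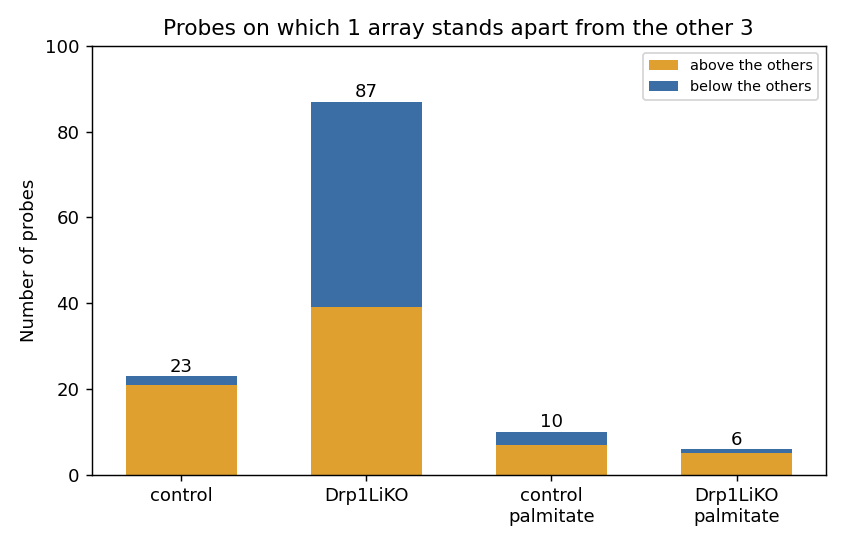
Number of probes, on the vertical axis, on which the named array was above (ochre) or below (blue) the median of the other 3 by 1.5 log2 units or more while those ranged over less than 0.7. The untreated Drp1LiKO array had 87 such probes of 20555 tested (0.42%), 2 of them for Bax, and the other arrays had 6 to 23.

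Bak1, the effector that resides in the mitochondrial membrane, differed from Bax in direction on the untreated arrays, while with palmitate both differed little between the genotypes. It read 2.55 in control and 3.43 in Drp1LiKO, and 2.86 and 3.02 in the same order with palmitate. Drp1LiKO was thus higher by 0.89 without palmitate and by 0.16 with palmitate. The first value was short of 2-fold, and 9.29% of the 16611 genes above background on all arrays had a larger difference in that pair. A single probe measured Bak1, so no second probe could be set beside it.

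Among the anti-apoptotic genes, Bcl2 differed most between the genotypes, but its probes gave unequal sizes. Bcl2 encodes the founding member of the family, which sits in the membranes of mitochondria and the endoplasmic reticulum. The BH1 probe read −2.32 in control and −3.31 in Drp1LiKO without palmitate, and −2.52 in control and −3.01 in Drp1LiKO with it. The differences of −0.99 without palmitate and −0.48 with palmitate fell short of 2-fold, the first narrowly. A second probe, at chr1:108434793-108434852 on the minus strand, read −3.35, −3.62, −3.80 and −4.16 on the 4 arrays in that order. Its genotype differences were −0.28 and −0.35, the same direction at a smaller size in the untreated pair.

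Bcl2l1, which encodes Bcl-xL, varied little. The probe that stands for it read 6.29 in control and 6.06 in Drp1LiKO, and 6.06 and 6.32 with palmitate, a range of 0.26. Its level was far above that of the other probes. A probe that overlaps it in position, chr2:152606400-152606446, read 0.80, 0.72, 0.56 and 0.79 in that order, and the remaining probes read lower still. Over the 5 probes of the gene the genotype difference ran from −0.23 to −0.05 without palmitate and from 0.01 to 0.40 with palmitate. All 5 were thus slightly lower in Drp1LiKO in the first pair and higher in the second, by sizes under 0.5 throughout. The probes share a target transcript and arrays and are not replicates of the conditions.

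Mcl1, a short-lived guardian, read 4.77, 4.58, 4.70 and 4.45 on the control, Drp1LiKO, control palmitate and Drp1LiKO palmitate arrays. Its genotype differences were −0.19 without palmitate and −0.24 with palmitate. A second probe gave −0.20 and −0.19. Drp1LiKO was thus slightly lower in both pairs on each probe.

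The BH3-only genes varied less than the effectors. Bbc3 encodes Puma, a BH3-only protein under the control of p53, and read 1.89 in control and 1.12 in Drp1LiKO without palmitate, and 1.62 and 1.45 with it. Its genotype difference was −0.77 without palmitate and −0.18 with palmitate. As in Bax, the lowest value was that of the untreated Drp1LiKO array. Pmaip1, which encodes Noxa, the BH3-only protein that neutralises Mcl1, read 0.81, 0.47, 0.93 and 0.49 in the same order. Its genotype difference was −0.34 without palmitate and −0.44 with palmitate.

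Bcl2l11 encodes Bim, which can bind every guardian and activate the effectors. The probe that stands for it read −0.66 in control and −0.58 in Drp1LiKO, and −0.80 and −0.45 with palmitate. Its genotype difference was 0.08 without palmitate and 0.35 with palmitate. The BH3 probe printed above read −1.47, −1.26, −1.46 and −0.97, with genotype differences of 0.21 and 0.48. The other two probes gave 0.24 and −0.24 without palmitate and −0.05 and 0.18 with palmitate, so the 4 probes did not share a direction in either pair.

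Bid and Bad varied least of the BH3-only genes. Bid encodes the BH3-only protein cut by caspase-8 downstream of death receptors, and read 2.08, 2.37, 2.15 and 2.27 on the control, Drp1LiKO, control palmitate and Drp1LiKO palmitate arrays. Its genotype differences were 0.30 and 0.12. Bad, whose product is held inactive by phosphorylation under survival signals, read 3.55, 3.34, 3.56 and 3.26, with genotype differences of −0.22 and −0.30. The direction was the same in both pairs for each of these genes.

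Taking the family as a whole, 3 of the 10 genes were higher and 7 lower in Drp1LiKO without palmitate, with a median difference of −0.22, beside −0.02 over all genes compared. With palmitate 5 were higher and 5 lower, with a median of −0.03 in the 10 genes and of −0.03 over all genes. A difference of at least 0.5 in size was found in 4 of the 10 genes without palmitate (Bax, Bcl2, Bak1 and Bbc3), where 23.2% of the 16611 genes above background on all arrays had one, and in 0 of the 10 with palmitate, where 18.0% had one. These 4 genes all had a smaller difference in the palmitate pair. They were picked by their size in the untreated pair, so a smaller value in the other pair carries little meaning. Their untreated differences also share the Drp1LiKO array that stood apart. The 10 genes do not stand for independent measurements of 1 quantity, and no test was made over them.

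**Figure D3:**
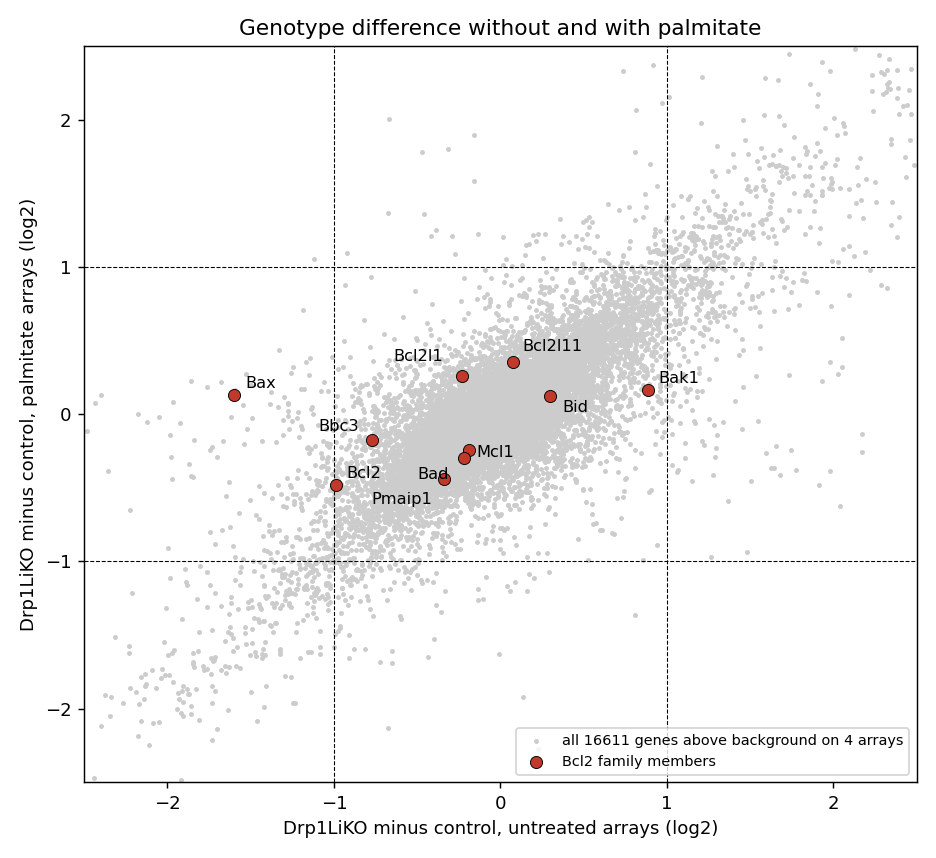
Log2 difference, Drp1LiKO minus control, on the untreated arrays (horizontal axis) and the palmitate arrays (vertical axis), for the 10 Bcl2 family genes (red) and 16611 genes that passed the background flag on every array (grey); dashed lines mark 2-fold and 119 grey genes lie beyond the axes. Bax, at −1.60 and 0.13, lies left of the 2-fold line, and the other 9 genes lie inside the lines on both axes.

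The genotype term could be tested over the 4 arrays only in an additive model with palmitate, or slide, as the second term, fitted with limma over 20615 genes. Its 1 residual degree of freedom takes up the interaction as well as noise. By this limma fit, 0 of the 10 genes had a Benjamini-Hochberg adjusted p under 0.05, as did 0 of all 20615 genes. Without adjustment, p was under 0.05 for 1 of the 10 genes, Pmaip1, and for 5363 of all genes. The effect, Drp1LiKO minus control, was −0.39 for Pmaip1 (SE 0.08, limma adjusted p = 0.17). It was −0.74 for Bcl2 (SE 0.19, limma adjusted p = 0.19) and −0.26 for Bad (SE 0.07, limma adjusted p = 0.21). For Bax, whose genotype differences were unequal in the pairs, the effect was −0.73 with an SE of 0.59 (limma adjusted p = 0.48).

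When an intensity trend was allowed in the prior variance, 4 of the 10 genes passed, Pmaip1 (limma adjusted p = 0.022), Bad (0.042), Bcl2 (0.043) and Mcl1 (0.045), all lower in Drp1LiKO. That fit called 26.0% of all genes. Bax did not pass in it either, with a limma adjusted p of 0.20.

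Palmitate, which cannot be told apart from the slide, gave small differences in control hepatocytes. Against the untreated control array, the 10 genes differed by −0.26 (Bbc3) to 0.31 (Bak1) on the control palmitate array, with 5 higher and 5 lower. None of the 10 reached 2-fold, beside 5.70% of 18772 genes. Mcl1, Bid and Bad each moved by less than 0.1.

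In Drp1LiKO hepatocytes 1 of the 10 genes reached 2-fold with palmitate, Bax, which was 3.65 times its untreated level (log2 difference 1.87). In that pair 7.04% of 19748 genes reached 2-fold in either direction, and 3.93% were higher. Among the 16611 genes above background on all arrays, 0.289% had a larger difference than Bax. The coding probe gave 1.81. This is the same low value of the untreated Drp1LiKO array described above, seen from the other side, since both comparisons share that array. The other 9 genes differed by −0.41 (Bak1) to 0.33 (Bbc3).

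The difference between the palmitate responses, Drp1LiKO minus control, was 1.73 for Bax, −0.72 for Bak1, 0.59 for Bbc3, 0.51 for Bcl2 and 0.49 for Bcl2l1, on the log2 scale. In the other 5 genes it lay between −0.17 (Bid) and 0.28 (Bcl2l11). It was at least 1 in size in 1 of the 10 genes, beside 10.8% of 20615 genes. With 4 arrays and 4 groups this difference could not be tested.

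Other genes of the pathway were taken from 8 lists, which hold 60 genes measured on the arrays. The lists were drawn up with earlier results of these data known. In the 58 genes well above background on both arrays of a pair, 1 reached 2-fold in each pair, Bcl2a1d, where 7.81% of all genes so measured did without palmitate and 5.56% with it. The other 2 of the 60, Bcl2a1c and Hrk, were above background in Drp1LiKO alone and have a bound only.

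Bcl2a1d belongs to a cluster of near-identical anti-apoptotic genes best known from blood cells. It read −2.02 in control and 0.52 in Drp1LiKO, and −1.21 and 1.29 with palmitate. Drp1LiKO was higher by 2.54 without palmitate and by 2.51 with palmitate. Its copy Bcl2a1c was not well above background in control and at least 1.9998-fold higher in Drp1LiKO without palmitate and 1.97-fold with it, so its bound did not reach 2-fold. Probes of such copies can bind each other's transcripts, so the values cannot be assigned to 1 copy. Hrk, a BH3-only gene best known from neurons, was not well above background in control either and was at least 3.92-fold higher in Drp1LiKO without palmitate and at least 2.26-fold higher with it. Bcl2l2, the guardian Bcl-w, differed by 0.15 and 0.17. In the list of other pro-apoptotic or BCL2-like proteins, which holds Hrk, Bcl2l14 differed by −0.26 and −0.09 and Bnip3l by −0.08 and −0.18. Among the genes of that list above background on all arrays, the largest difference in each pair was in Bnip3, 0.69 and 0.73.

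Markers of some cells other than hepatocytes were also higher in Drp1LiKO, as Bcl2a1d was, but they did not all follow it. With palmitate Bcl2a1d was higher by 0.81 in control and by 0.78 in Drp1LiKO. Of 9 macrophage markers above background on both untreated arrays, 8 were higher by at least 2-fold in Drp1LiKO (median 2.41), and 5 of 6 were on the palmitate arrays (median 1.65). A further 3 and 4 were above background on 1 array of the pair. The summed level of all 12 measured, in units of the 75th percentile, was 9.72, 37.2, 12.2 and 34.6 on the control, Drp1LiKO, control palmitate and Drp1LiKO palmitate arrays. Cd68 gave the largest part of this sum on every array, and single markers differed with palmitate. Of markers above background on 1 or both arrays, 7 of 12 were lower by 2-fold with palmitate in Drp1LiKO and 1 was higher (median −1.37). In control 4 of 9 were lower and 2 higher (median 0.17). The macrophage markers Adgre1 and Cd68 were above background on all 4 arrays, while Clec4f, the marker of Kupffer cells, was not on either control array. Counted on both arrays in the same way, stellate markers were higher by at least 2-fold in 3 of 5 without palmitate and 2 of 4 with it, and endothelial markers in 4 of 7 and 3 of 5. Another endothelial marker, Tek, was above background in 1 array of each pair, that of Drp1LiKO without palmitate and that of control with it. The part of these cells in the values of Bcl2a1d or of the Bcl2 family was not tested, and in such bulk RNA more cells of a type and more RNA per cell cannot be told apart. All 9 hepatocyte markers measured were above background on every array, and their summed level, to which Serpina1a and Alb gave most, ran from 1290 to 1320. Single hepatocyte markers did differ between the genotypes, Cps1 by 0.94 and 1.12 and Cyp2e1 by −0.66 and −0.72, and Tat was higher by more than 2-fold in both pairs (1.22 with palmitate). The largest rise among the 10 Bcl2 family genes in Drp1LiKO was 0.89 (Bak1, untreated), and its relation to these markers was not tested.

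Genes downstream of the pore differed little. In the list of the mitochondrial channel and of factors released through the membrane, 0 of 9 genes reached 2-fold in either pair, and the median genotype difference was −0.07 without palmitate and −0.10 with it. Cycs, which encodes cytochrome c, differed by −0.14 and −0.18, and Vdac2, the channel that holds Bak1, by 0.24 and 0.15. Of the 7 genes of the apoptosome and caspases none reached 2-fold. The effector caspase gene Casp6 differed by 0.02 and −0.20 and the initiator Casp2 by −0.20 and 0.01. Among the 5 inhibitors of apoptosis, Xiap, which blocks caspases directly, differed by −0.21 and −0.14, and Cflar, which blocks caspase-8, by −0.39 and −0.07.

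Genes upstream of the family also stayed inside 2-fold, though Fas came close and some others differed by more than 0.5. Among 8 death receptors and adaptors the largest difference was in Fas, which read 0.48, −0.52, 0.12 and −0.76 and gave genotype differences of −0.9996 and −0.89, just under the threshold. Fas was singled out after its values were seen, as were Ripk3, which differed by −0.78 and −0.70, and Mlkl, by 0.71 and 0.55. Tnfrsf1a, the receptor for tumour necrosis factor, differed by 0.05 and 0.16 and its adaptor Tradd by 0.07 and 0.02. Of 12 genes of p53 and its targets none reached 2-fold. Mdm2, which targets p53 for degradation, differed by −0.01 and −0.02, and Perp by −0.54 in both pairs. Of the 7 transcription factors that act on BH3-only genes, Atf4 differed by 0.27 and 0.26 and Jun by −0.27 and −0.19. Larger differences in that list were those of E2f1, −0.71 and −0.45, and of Ddit3 with palmitate, 0.65 (0.18 without it). None of the measured pathway genes reached 2-fold between palmitate and untreated arrays in either genotype.

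**Figure D4:**
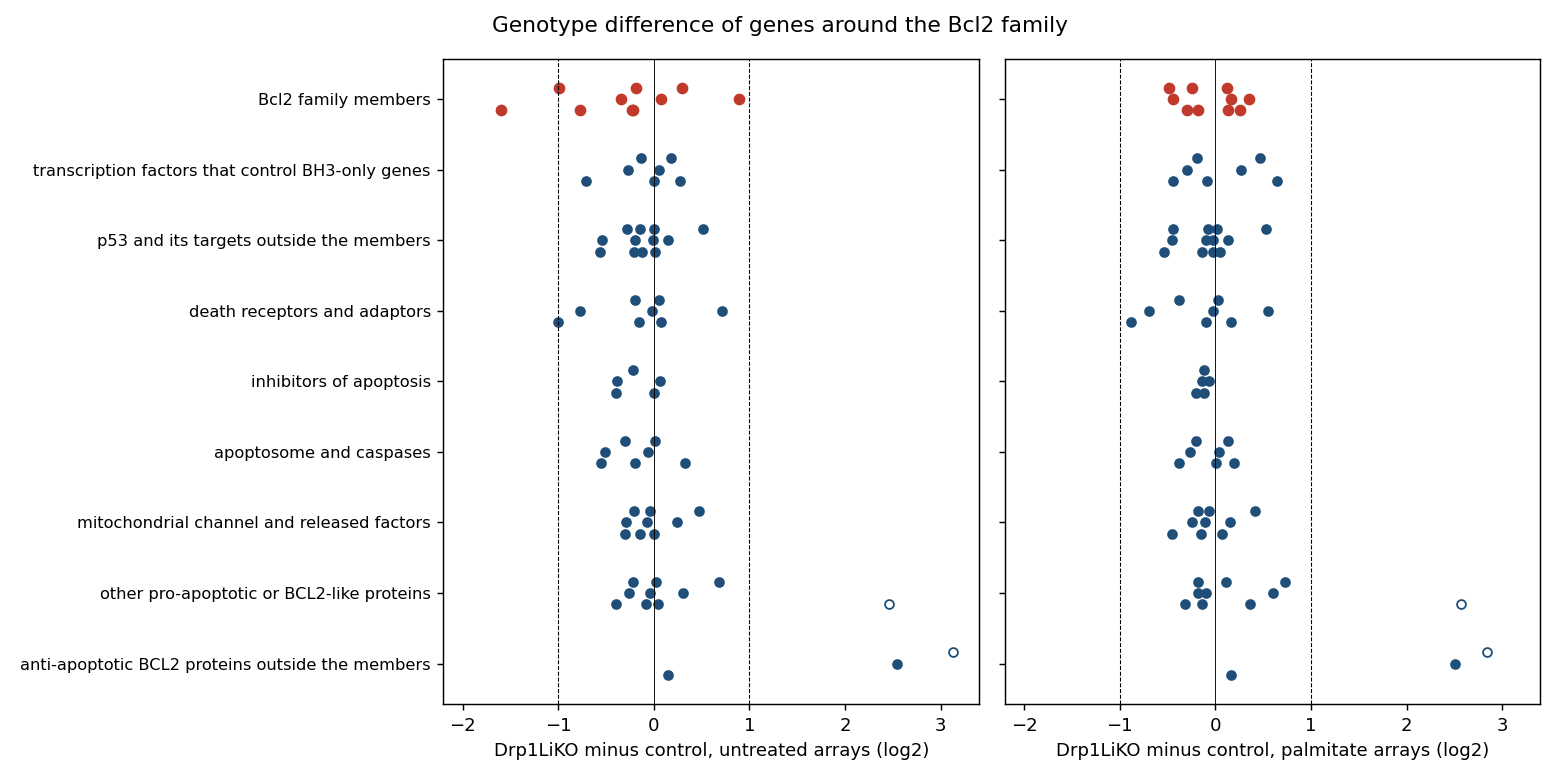
Log2 difference, Drp1LiKO minus control, on the untreated arrays (left) and the palmitate arrays (right) for each gene of the 8 pathway lists (blue) and the 10 Bcl2 family genes (red, top); open points are genes well above background on 1 array of the pair, whose value is no bound, and dashed lines mark 2-fold. Besides Bax, the points beyond the lines are Bcl2a1d, Bcl2a1c and Hrk.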

How the data were processed

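RNA of 4 samples was labelled with a low-input Cy3 kit and hybridised to a 60-mer mouse array. The deposited scanner output gives linear intensity values after subtraction of background and spatial trends by Agilent Feature Extraction, per the file headers, and arrays were not scaled to each other. The submitters' processing notes name version 9.5.1.1, which differs from the file headers. The labels and the methods name different RNA kits. The authors also deposited a table of intensity values, whose 4 columns hold the same sorted values, as quantile normalization gives; it served as an alternative.

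Control spots and spots marked as outliers were left out, the processed signal was taken to log2 and centred on the 75th percentile of its array, and repeat spots were averaged. That percentile lay at intensities of 424 to 542, 44.7% to 51.1% of probes were well above background, and 0 spots were saturated. A gene was represented by its probe with the highest mean level among those above background on at least 1 array. For a bound, the dim array was given its own value or, if larger, its lowest value above background. The genotype term was fitted with limma 3.58.1 in R 4.3.3, two-sided. The scripts were tested on simulated data. Alternatives were quantile scaling, the median or a percentile over probes above background, normexp with an offset of 50, the authors' table, other filters, probe means, a floor and a 1.5-fold threshold.

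Named were all 10 members and Dnm1l. From each pathway list came the genes called with a probe above background on both arrays, plus the 2 with the highest mean level. The 3 genes nearest to 1 member were also named, that with the largest absolute genotype difference averaged over both conditions. Members, lists and rules were chosen with earlier results of these data known; other genes named were chosen after their values were seen. Of the neutrophil, lymphocyte and cholangiocyte marker lists, 1, 1 and 3 genes were above background on both untreated arrays, and 0 of them differed by 2-fold. On both palmitate arrays 2, 1 and 4 were, and 1 of these, the neutrophil marker S100a8, was higher in Drp1LiKO by 2.39. Above background on 1 array of the pair alone were Ly6g, Cd3d and Krt7 without palmitate, and Ly6g, Cd79a and Ms4a1 with it.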

Additional observations from a re-analysis of the deposited data

Results flagged for a closer look

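For some genes of the family the arrays differed in opposite directions in the groups, by more than 0.15 log2 units each. That size is 3 times the spot noise of a difference, which leaves out the spread between animals or cultures, so these values may lie within it. The palmitate response was 0.31 in control and −0.41 in Drp1LiKO for Bak1 (difference −0.72), −0.26 and 0.33 for Bbc3 (0.59), −0.21 and 0.30 for Bcl2 (0.51), and −0.23 and 0.26 for Bcl2l1 (0.49). Seen across genotypes, the difference for Bcl2l1 was −0.23 without palmitate and 0.26 with palmitate, which is the same contrast of 0.49. With 1 array per group these differences were not tested. The 5 probes of Bcl2l1 shared the direction of its genotype difference in each pair, but 2 of them were negative for palmitate in Drp1LiKO, where the mean over its probes was 0.03 in place of 0.26. The second probe of Bcl2 did not share the opposite movement, with palmitate responses of −0.45 and −0.53.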

How the results depend on the processing

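The counts of changed genes were recomputed under 53 alternatives, of which 48 gave a count within 1.5 times the one reported. Filtering on both arrays, a floor for dim values and keeping outlier spots left the values of the 10 genes as they were. For the 2-fold counts and for Bax these alternatives were therefore no check, and many of the counts were 0 in any case. Without palmitate, the genotype comparison gave 2 genes in place of 1 with quantile scaling, with the median of each array, and with the authors' table, since Bcl2 then passed 2-fold beside Bax. Other alternatives made that Bcl2 difference smaller, −0.59 with normexp and −0.63 with probe means. A 1.5-fold threshold gave 4 genes there, Bax, Bak1, Bcl2 and Bbc3. The additive model called 4 genes with an intensity trend and 0 in each other fit, with normexp calling 7.36% and genes above background on all arrays 15.6% of all genes. Centring on the median shifted the median of all genes to −0.20 and −0.17 in the genotype comparisons without and with palmitate. Bax stayed past 2-fold, in the same direction, in the untreated genotype pair and in the palmitate pair of Drp1LiKO under every alternative run. Of 40 differences, 10 genes in 4 comparisons, 34 kept their sign in all alternatives. The exceptions were Bcl2l11, Bax and Bid between genotypes, Bcl2l11 and Bad for palmitate in control, and Bcl2 for palmitate in Drp1LiKO, with probe means turning that Bcl2 value from 0.30 to −0.12. The additive model already compares the genotypes within each slide. With 1 array per group, no replicate number pairs samples and no replicate could be left out. The number of arrays limits the precision, and background limits the second Bcl2 probe, which read −4.16 on the Drp1LiKO palmitate array, where the lowest value above background was −4.52.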
